A study of Mus musculus and Homo sapiens with 27 samples.

Results

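HEK293T, a human embryonic kidney line, was used to ask which RNAs are gained and which are lost when RNA labelled near one membrane is captured and set against the RNA of labelled cells before capture. The cells stably carried an enzyme that the labels name LAP with the location ERM, taken here to be the endoplasmic reticulum (ER) membrane. This holds for all groups as far as the labels say. The comparison takes 6 of the 27 libraries of the series. The titles of these and of the other HEK293T libraries carry the mark 3G, which the labels do not spell out. The 3 titled Label_Enrich come from the RNA that streptavidin beads held back, and the 3 titled Label_Input from RNA of labelled cells set aside before the beads. Labelling was done with PA at 10 mM, a compound the labels do not spell out, and furimazine, the substrate of a luciferase, at 50 µM. It lasted 15 to 60 min, and biotin azide at 0.1 mM was then joined to the extracted RNA. A further 3 libraries, titled NonLabel_Enrich, hold captured RNA from cells without labelling, for which no separate treatment is described. They shared the fit and are given beside the results. Whether the cells were 1 clone and whether replicates were separate cultures is not stated, so p-values rest on the spread among these libraries, which may be technical.

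Messenger RNAs for secreted, membrane and lysosomal proteins are translated by ribosomes bound to the ER, which they reach through the signal peptide of the growing chain. Messenger RNAs for cytosolic, nuclear and most mitochondrial proteins are translated mainly on free ribosomes. Proximity labelling at the ER membrane marks RNA close to the enzyme, and the biotin added afterwards lets streptavidin beads retain it. Beads also hold some unlabelled RNA, which is what captured RNA of unlabelled cells measures.

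Of the 57992 Ensembl features in the table, 9177 passed the low-count filter and were tested. The table pairs no feature with a gene name, and the name tables used here, which describe mouse, matched 0 of the 57992. Features are therefore given by level and behaviour. Only 2 that rose and 2 that fell are printed by Ensembl ID, with no gene name, role or position. For the same reason HEK293T identity, ER genes and markers of other cell types were not checked by name. The 9 libraries held 442059 to 1135243 counts, Label_Enrich 576292 to 1135243 and Label_Input 442059 to 742649. Features with at least 1 count numbered 15030 to 17230 in Label_Enrich and 15278 to 17005 in Label_Input.

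The most abundant RNAs took a smaller share of the counts in Label_Enrich than in Label_Input. The 3 most abundant features of the 6 libraries took 26.0%, 26.4% and 28.0% of the counts in the Label_Input libraries and 10.02%, 10.03% and 10.48% in Label_Enrich. Means were 26.8% ± 1.10 and 10.2% ± 0.264 (SD, n = 3 each), and the groups did not overlap. An exact 2-sided permutation test over the 6 libraries gave p = 0.1, the smallest value that 3 against 3 allows. The same features took 13.02% to 15.0% in NonLabel_Enrich, so captured RNA without labelling also lay below input. The 100 most abundant features took 39.6% ± 0.938 of Label_Input and 24.2% ± 0.580 of Label_Enrich counts, so the gap between the groups was not wider for 100 features than for 3.

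The top feature alone stood at 13.5%, 12.7% and 12.3% in Label_Input and at 5.28%, 5.11% and 5.48% in Label_Enrich. The second stood at 9.95%, 9.35% and 9.25% in Label_Input and at 2.82%, 2.90% and 2.95% in Label_Enrich. All 3 passed the test as lower, with -1.49 ± 0.05, -1.94 ± 0.07 and -1.37 ± 0.07 (SE) on the log2 scale. Their edgeR adjusted p were 4.06e-36, 1.19e-37 and 1.11e-27. Relative to NonLabel_Enrich the third did not pass, at 0.17 (edgeR adjusted p = 0.0655), while the first and second were lower at -0.37 and -0.73.

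Below them the abundant features went both ways. Of the 100 most abundant, 30 were called higher, 36 lower and 34 neither, beside 17.1% higher and 12% lower over all tested features and 27.5% and 18.1% in the most abundant of 5 equal bins of them. Among the top 10, 2 were higher and 8 lower. The feature of rank 8 had the clearest gain: 0.633%, 0.636% and 0.649% of counts in Label_Enrich, 0.110%, 0.101% and 0.104% in Label_Input, and 0.217%, 0.202% and 0.218% in NonLabel_Enrich. No library of one group came near another group, and the log2 fold change over Label_Input was 2.39 ± 0.08 (SE, edgeR adjusted p = 1.19e-37), with 1.67 over NonLabel_Enrich. The feature of rank 9 was the least even, at 0.322%, 1.05% and 0.510% in Label_Input against 0.0626%, 0.0978% and 0.0710% in Label_Enrich. It was called lower at -3.24 ± 0.19 (SE, edgeR adjusted p = 2.30e-24), its highest input library being more than 3-fold its lowest. The features of ranks 8 and 9 were singled out after their values were seen.

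**Figure D1:**
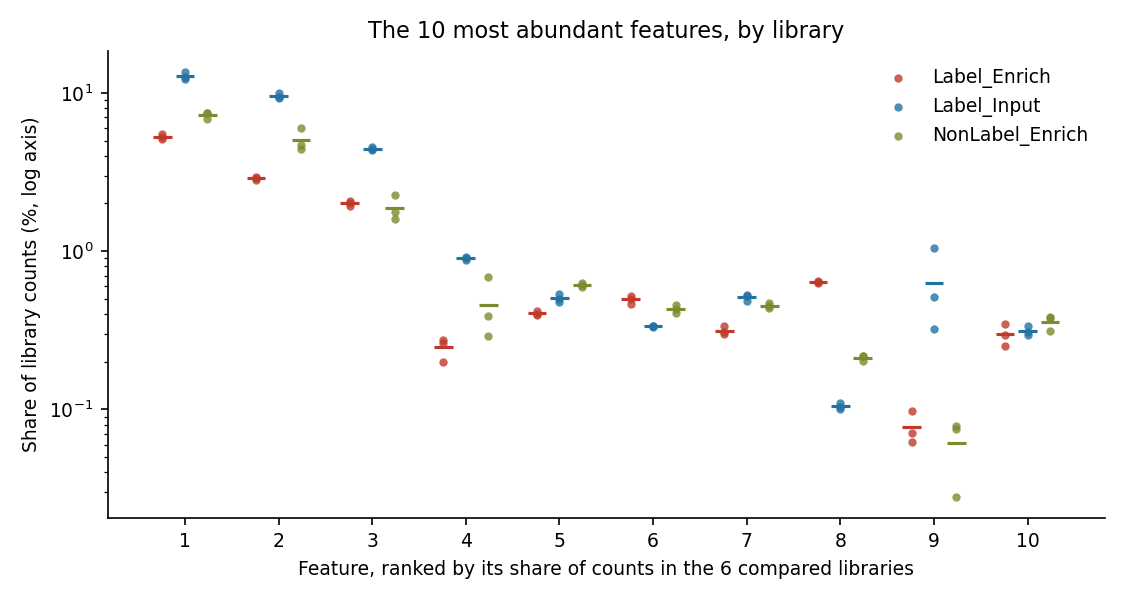
Share of library counts, in percent on a log axis, for the 10 most abundant features, with 1 point per library and a bar at the mean of each group of 3. Label_Input has the highest mean for features 1 to 4, 7 and 9, Label_Enrich for features 6 and 8, and the Label_Input points of feature 9 spread from 0.322% to 1.05%.

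Over all tested features, edgeR's quasi-likelihood test called 1567 higher in Label_Enrich (17.1% of those tested) and 1097 lower (12% of those tested) at a Benjamini-Hochberg adjusted p under 0.05. The groups of 3 libraries did not overlap for 40.2% of tested features, 21.3% upward and 18.8% downward. Most calls had separate groups: 1497 of the 1567 higher and 995 of the 1097 lower. The unit CPM puts the counts of each library on one scale by TMM (trimmed mean of M values) factors, so levels are relative to the bulk of tested features and do not measure the amount of RNA captured. The split between directions depended on that scaling. With upper quartile factors 1284 were higher and 1768 lower, and with library totals alone 2271 were higher and 485 lower, since these moved the median log2 fold change by -0.14 and 0.21.

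With TMM factors the directions also differed in the size of the called changes. Features called higher had a median log2 fold change of 1.17, and 981 of them (10.7% of those tested) were at least 2-fold higher. Features called lower had a median of -0.77, and 300 (3.27% of those tested) were at least 2-fold lower. Called or not, 106 features lay above 2 on the log2 scale and 39 below -2. More features were at least 2-fold higher than at least 2-fold lower under every scaling tried: 818 against 496 with upper quartile factors, 1226 against 158 with library totals, and 896 against 224 with DESeq2. The largest log2 fold changes over all tested features reached 2.90 upward and -5.20 downward.

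The gain formed a shoulder on the distribution. Counted in steps of 0.25 on the log2 scale, the tested features thinned from 1491 between 0 and 0.25 to 455 between 0.50 and 0.75. The count was then nearly level, at 309 and 303 in the steps from 0.75 to 1.25. It fell to 254, 199, 142 and 64 in the following steps up to 2.25. The lower side had no such shelf, with 421 features between -1 and -0.75, 177 between -1.25 and -1 and 78 between -1.5 and -1.25. Relative to Label_Input, 1004 features lay above 1, called or not, and 336 below -1.

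A like shelf was present when Label_Enrich was set against NonLabel_Enrich, a comparison that shares the Label_Enrich libraries. There 310, 349 and 298 features lay in the steps from 0.75 to 1.5, 933 lay above 1 and 155 below -1. NonLabel_Enrich against Label_Input showed none: 146, 50 and 15 features lay in the same steps, 78 above 1 and 198 below -1. By the same test 1460 features were higher (15.9%) and 673 lower (7.33%) in Label_Enrich than in NonLabel_Enrich, with 914 (9.96%) and 124 (1.35%) at least 2-fold. Between NonLabel_Enrich and Label_Input the numbers were 272 higher (2.96%) and 370 lower (4.03%), with 23 (0.251%) and 127 (1.38%) at least 2-fold. Label_Enrich against NonLabel_Enrich compares labelled with unlabelled capture directly. It equals a difference in their changes over input only if Label_Input stands for the input of both. No input of unlabelled cells was used here, so an effect of labelling on the cells' own RNA levels cannot be told apart from capture.

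**Figure D2:**
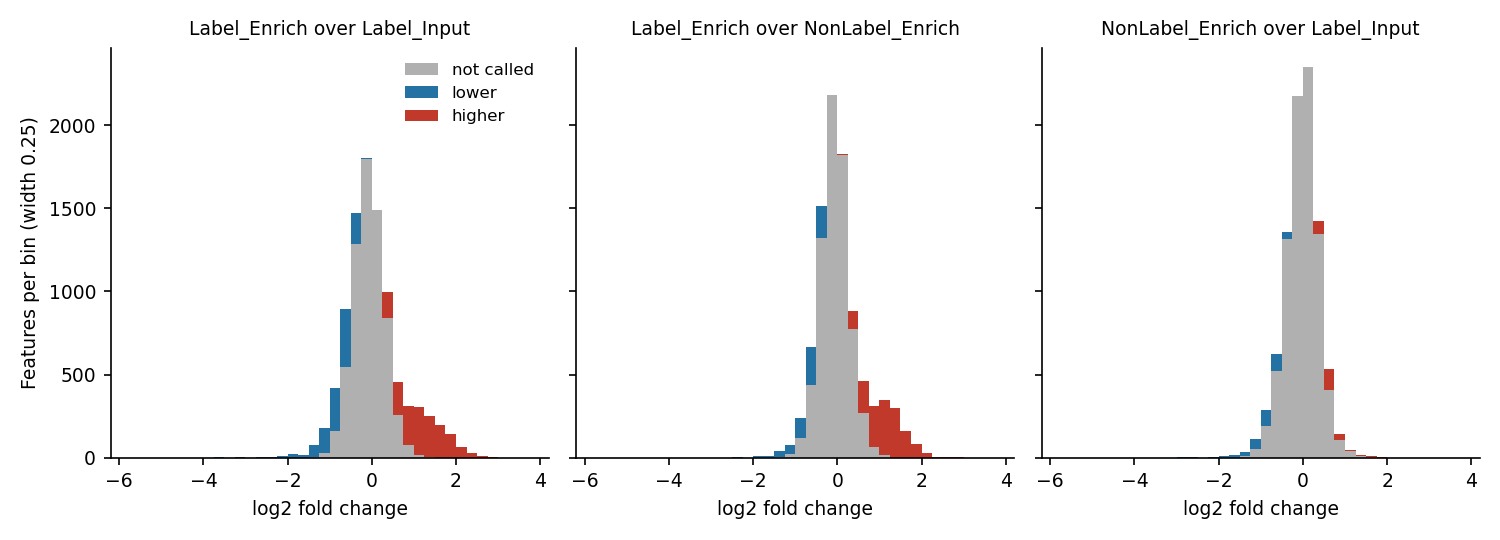
Number of tested features per step of 0.25 in log2 fold change for the 3 comparisons of the 3 HEK293T groups, stacked by the edgeR call at an adjusted p under 0.05. The shelf of higher features above 1 is present in both comparisons that contain Label_Enrich, with 1004 and 933 features above 1, and absent from NonLabel_Enrich over Label_Input, with 78.

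The features called higher had a median level of 105.8 CPM in Label_Enrich, 47.7 CPM in Label_Input and 54.1 CPM in NonLabel_Enrich. Those called lower had medians of 48.4, 82.0 and 64.0 CPM in the same order. These medians describe features chosen by the first pair of groups. For the called-higher features the median log2 fold change was 1.05 over NonLabel_Enrich and 0.22 for NonLabel_Enrich over Label_Input. For the called-lower features the medians were -0.37 and -0.41 in the same order. Each comparison shares libraries with the choice of the features. No test was made of these medians, and nothing is read from them.

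The largest changes are given here with the levels in all groups. Among features that were called, averaged at least 20 CPM over the 6 libraries and had separate groups, 1391 were higher and 899 lower. The 50 with the largest rises had log2 fold changes of 2.14 to 2.80 over Label_Input, median 2.30. Their median level was 193 CPM in Label_Enrich, 37.4 CPM in Label_Input and 55.0 CPM in NonLabel_Enrich. Over NonLabel_Enrich the same 50 had values of 1.05 to 2.34. That comparison uses the same Label_Enrich libraries by which the 50 were chosen, and nothing is read from it. For NonLabel_Enrich over Label_Input they had values of -0.19 to 1.29, median 0.52. There 17 were called higher, where 2.96% of all tested features were. That comparison shares the Label_Input libraries with the choice, and nothing is read from it either.

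The 50 with the largest falls were less alike. Their log2 fold changes over Label_Input ran from -4.96 to -1.47, median -2.05, and their median level was 18.03 CPM in Label_Enrich, 78.2 CPM in Label_Input and 31.7 CPM in NonLabel_Enrich. For NonLabel_Enrich over Label_Input their median was -1.27 and 39 were called lower, where 4.03% of all tested features were. Over NonLabel_Enrich their values ran from -2.44 to 3.09, with 22 called lower and 3 higher, where 7.33% and 15.9% of all tested features were. Both counts share libraries with the choice of the 50, and nothing is read from them. One feature, singled out after its values were seen, averaged 3474 CPM in Label_Input, 522 CPM in Label_Enrich and 64.0 CPM in NonLabel_Enrich. Its lowest level thus lay in captured RNA without labelling.

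ENSG00000123146 had the largest rise under these conditions. It had 55, 37 and 13 counts in the Label_Enrich libraries, 2, 4 and 3 in Label_Input and 4, 3 and 10 in NonLabel_Enrich. On the CPM scale this was 48.6, 44.1 and 22.6 against 3.47, 6.24 and 7.78, with Label_Enrich replicate 3 the lowest of its group and still above every input library. The log2 fold change over Label_Input was 2.80 ± 0.45 (SE, edgeR adjusted p = 4.10e-07). Over NonLabel_Enrich it was 2.26 ± 0.38 (edgeR adjusted p = 1.97e-06), and NonLabel_Enrich over Label_Input did not pass, at 0.54 ± 0.62 (edgeR adjusted p = 0.688). Both comparisons with NonLabel_Enrich share libraries with the choice of this ID, and nothing is read from them.

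ENSG00000168216 came second, with 55, 44 and 31 counts in Label_Enrich, 4, 7 and 1 in Label_Input and 12, 7 and 7 in NonLabel_Enrich. Its levels of 48.6, 52.4 and 53.8 CPM in Label_Enrich were close together, and the input libraries stood at 6.95, 10.9 and 2.59 CPM. The log2 fold change was 2.75 ± 0.39 over Label_Input (SE, edgeR adjusted p = 1.30e-08) and 2.00 ± 0.32 over NonLabel_Enrich (edgeR adjusted p = 6.00e-07). NonLabel_Enrich over Label_Input had 0.76 ± 0.51 (edgeR adjusted p = 0.431). For this ID too, nothing is read from the comparisons with NonLabel_Enrich, which share libraries with its choice. Both risers thus rest on 1 to 7 counts per input library, which limits the precision of their fold changes. Both passed the low-count filter only through Label_Enrich, the group where they are high, so their being tested is not separate from their rise.

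ENSG00000278233 had the largest fall under the same conditions, and 1 library set its size. Its counts were 44, 793 and 16 in Label_Input, 16, 17 and 6 in Label_Enrich and 15, 21 and 40 in NonLabel_Enrich. Input replicate 2 stood at 1236 CPM against 76.4 and 41.5 CPM in the other input libraries. The fall over Label_Input, -4.96 ± 0.51 on the log2 scale (SE, edgeR adjusted p = 3.08e-13), became -1.99 without that library (edgeR adjusted p = 1.33e-05). NonLabel_Enrich over Label_Input went from -3.69 (edgeR adjusted p = 2.40e-09) to -0.71 (edgeR adjusted p = 0.248) without it. Label_Enrich over NonLabel_Enrich, at -1.27 (edgeR adjusted p = 0.265), passed at -1.28 without that library (edgeR adjusted p = 0.00264). It also passed at -1.62 with the replicate number as a block (edgeR adjusted p = 0.00237) and at -1.26 without the low-count filter (edgeR adjusted p = 0.000106). The comparisons with NonLabel_Enrich share libraries with the choice of this ID, and nothing is read from them.

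ENSG00000199347 had the second largest fall under these conditions, with even input libraries and scarce captured ones. It had 29, 33 and 19 counts in Label_Input, 2, 4 and 0 in Label_Enrich and 7, 4 and 4 in NonLabel_Enrich. It passed the low-count filter only through Label_Input, the group where it is high. The input libraries lay at 50.4, 51.4 and 49.2 CPM, the captured ones at 1.77, 4.77 and 0 CPM, and the log2 fold change was -4.32 ± 0.47 (SE, edgeR adjusted p = 3.64e-12). With a Label_Enrich library left out the log2 fold change ran from -3.97 without replicate 3 to -5.23 without replicate 2. In NonLabel_Enrich it was also below input, at -2.75 ± 0.40 (edgeR adjusted p = 2.85e-07). Label_Enrich over NonLabel_Enrich did not pass, at -1.57 ± 0.67 (edgeR adjusted p = 0.0846), a call that depended on the settings. It passed at -2.49 without Label_Enrich replicate 2 (edgeR adjusted p = 0.0313) and at -1.69 with upper quartile factors (edgeR adjusted p = 0.0494). It also passed at -1.60 with a minimum count of 30 (edgeR adjusted p = 0.0362). Here as well the comparisons with NonLabel_Enrich share libraries with the choice of the ID, and nothing is read from them.

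**Figure D3:**
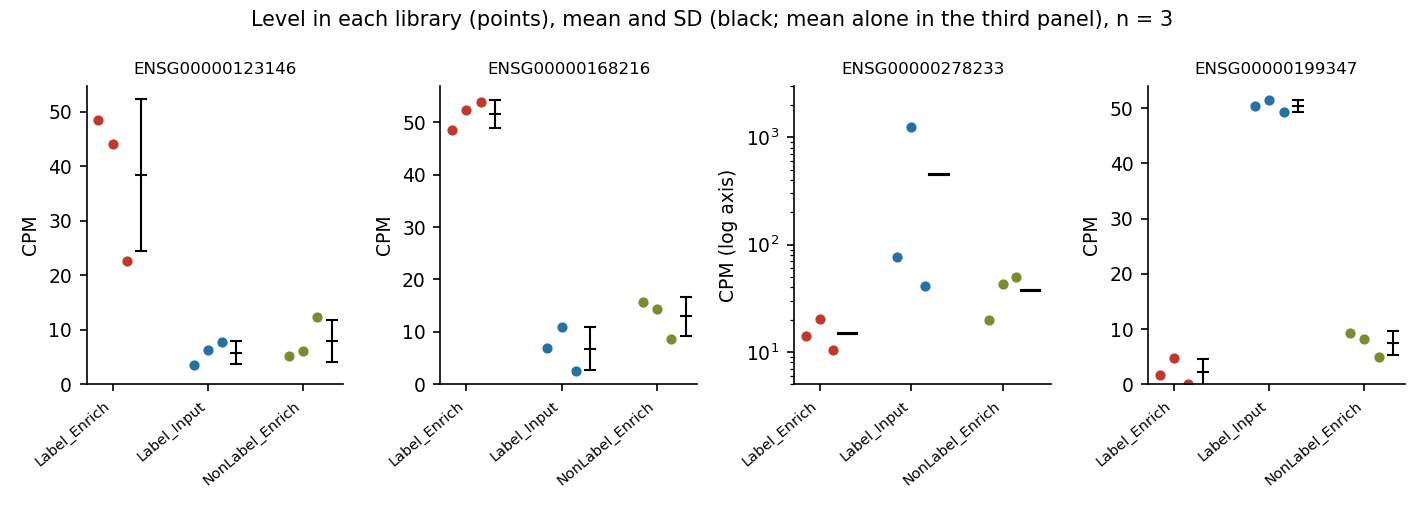
CPM in each of the 9 HEK293T libraries (points) of the 2 largest risers and the 2 largest falls among called features with a mean of at least 20 CPM and separate groups, with the mean and SD in black, the third panel having a log axis and the mean alone. In both risers the Label_Enrich points lie above all Label_Input points, which the choice of these IDs required. In ENSG00000278233 the Label_Input points spread from 41.5 to 1236 CPM.

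Calls were more frequent among abundant features, where the error was smaller. The tested features were ordered by their mean CPM over the 9 libraries and cut into 5 bins of equal size. In the least abundant bin, with a median of 16.8 CPM, 9.10% were called higher and 8.33% lower. In the most abundant bin, with a median of 177 CPM, 27.5% were called higher and 18.1% lower. The median SE of the log2 fold change was 0.41 in the least and 0.14 in the most abundant bin, and the smallest change that was called was 0.89 and 0.23.

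Features called at least 2-fold higher were found in every bin. Those called at least 2-fold lower lay mainly in the less abundant bins. Exceptions included the features of ranks 1 to 4 and 9 by share of counts, at -1.49, -1.94, -1.37, -2.09 and -3.24. From the least to the most abundant bin, 166, 142, 201, 219 and 253 features were called at least 2-fold higher. The features called at least 2-fold lower numbered 139, 72, 38, 21 and 30. The low-count filter works by group, so scarce features could enter the test only through the group where they are high. How many did so was not counted, and the 2-fold calls in the least abundant bin are not separate from the filter. The median log2 fold change of all features in a bin went from -0.14 to 0.06. At this depth a change under 2-fold was rarely detectable in the least abundant bin, where 166 of 167 higher calls and 139 of 153 lower calls were 2-fold or more.

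**Figure D4:**
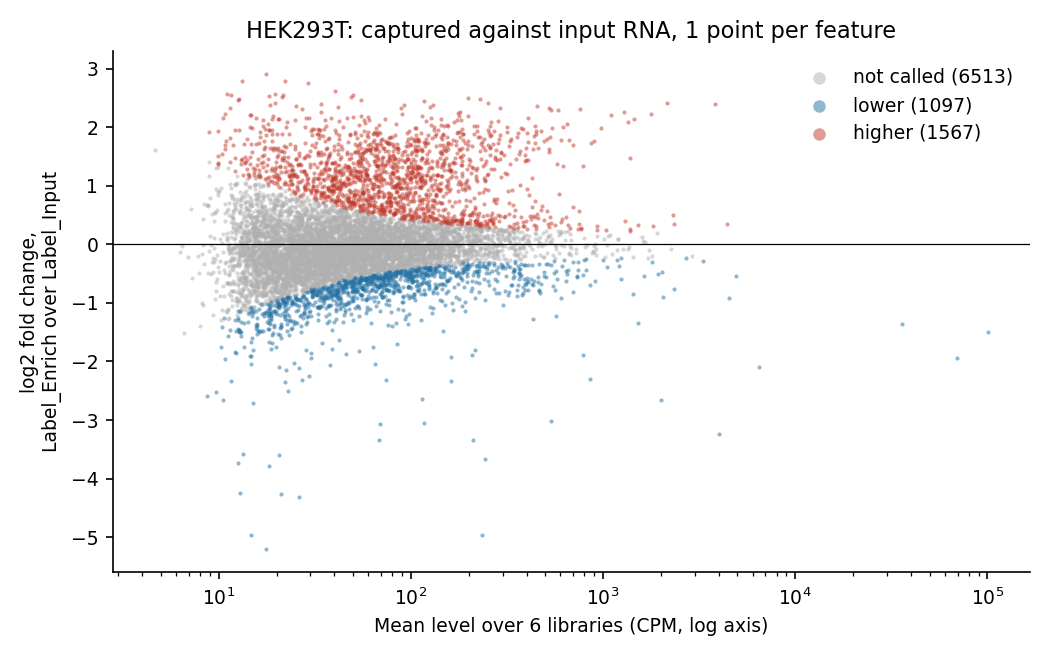
log2 fold change of Label_Enrich over Label_Input against the mean level in CPM over the 6 libraries (log axis), 1 point per tested feature, coloured by the edgeR call. Higher calls (1567) reach 2.90 and occur at all levels, more often at high ones. Most lower calls (1097) lie above -2, and the points farthest right are the most abundant features, which were lower.

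**Figure D5:**
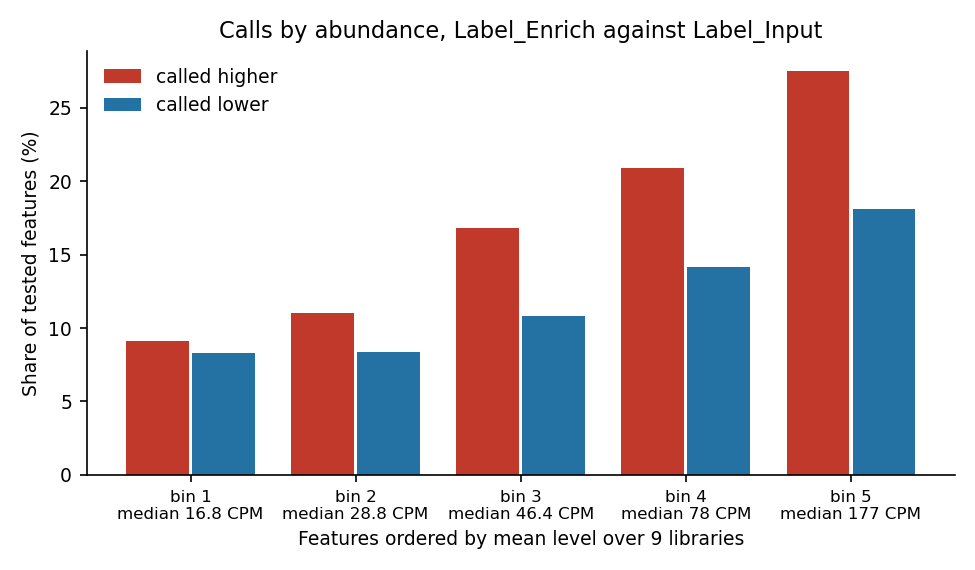
Share of tested features called higher or lower, in percent, in 5 bins of equal size ordered by mean CPM over the 9 libraries. Both shares grow with level, from 9.10% and 8.33% in the lowest bin to 27.5% and 18.1% in the highest.

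The median SD of log2(CPM + 1) within a group was 0.22 in Label_Enrich and 0.27 in Label_Input, and the median absolute log2 fold change over all tested features was 0.36, larger than either. Pearson correlations of log2(CPM + 1) across features, which are not independent replicates, were 0.909 to 0.960 for the 9 pairs of libraries of one group. They were 0.803 to 0.848 for the 9 pairs of a Label_Enrich with a Label_Input library. Counts of libraries of one group differed by more than sampling noise, with a dispersion around 1 shared proportion of 1.40 to 1.77, where 1 marks sampling alone, so none looked like a library deposited more than once. Between Label_Enrich and Label_Input the dispersion was 10.98 to 17.4.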

How the data were processed

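The deposited table holds raw read counts, whole numbers with 1 row per Ensembl gene. The submitters' processing notes name cutadapt 1.18, HISAT2 2.1.0, HTSeq 0.7.2, DESeq2 1.16.1 and the human build GRCh38. Per the labels' protocols, DNase-treated total RNA was clicked to biotin azide, captured on beads and made into libraries with a NEBNext Ultra II RNA kit. Strand, multi-matching reads and the annotation release: not given in the sources used here, so counts of near-identical or overlapping genes are uncertain. The MC38 counts were not used here.

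One fit held all 9 HEK293T libraries with a coefficient for each group (edgeR 4.0.16, R 4.3.3). It used the default low-count filter by group (minimum count 10), TMM factors, the 2-sided quasi-likelihood F test and Benjamini-Hochberg adjustment over all tested features, with a threshold of 0.05. SE was computed as the size of the log2 fold change over the square root of F. The fit was tested on simulated data. Levels are CPM, given per library or as mean ± SD (n = 3).

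IDs printed are the 2 with the largest change in each direction among called features with a mean of at least 20 CPM and separate groups. The 29 gene lists written by symbol could not be used, since 0 features had names. The comparison, lists and rules were chosen with earlier results of these data known. Alternatives were DESeq2 1.42.0, other scalings and filters, the 6 compared libraries alone, a replicate block, the most abundant feature left out, each library left out, and counts thinned to the lowest total, the last chosen after seeing the data.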

Additional observations from a re-analysis of the deposited data

How the results depend on the processing

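The count of features called higher, 1567, stayed within 1.5 times under every alternative run, and was 1314 to 1457 when each of the 6 libraries was left out in turn. The count called lower, 1097, was 812 to 947 in the same runs. It was 630 with DESeq2, 1768 with upper quartile factors and 485 with library totals alone. With 1284 higher beside 1768 lower, upper quartile factors turned the excess of higher over lower calls around. Without the low-count filter 1666 of 23793 tested features were higher and 732 lower. Of the 2664 calls, 1849 were also called in the same direction by DESeq2 and 0 in the opposite one. In the runs without 1 library, 1 call was in the opposite direction, without Label_Enrich replicate 1. The share of features whose groups did not overlap, 40.2%, was 42.3% with upper quartile factors, 20.4% without the filter, 48.0% with a minimum count of 30, 41.5% with the 6 libraries alone and 37.98% with thinned counts. It was not computed with a library left out, where the groups have unequal sizes. The labels give the groups the same replicate numbers but no shared source. Deviations of same-numbered Label_Enrich and Label_Input libraries from their group means had correlations of -0.013, 0.022 and -0.018, so the numbers were not taken as pairs, and not every library correlated best with its own number. With the replicate block 1557 were higher and 1064 lower, and the share of features with separate groups was unaffected, since it uses no model. All 4 printed IDs kept their call and direction over Label_Input in every alternative where they were tested. They were chosen as the largest called changes in these same libraries, so this is no separate support for them. ENSG00000123146 did not pass the filter with a minimum count of 30. Alternatives for gene lists were not run, since 0 features had names. Depth limits the scarce features most: 0 of the 2894 features with counts in Label_Enrich and none in Label_Input passed the filter, the highest having 18 counts over 3 libraries.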
